A study of Mus musculus with 162 samples.

Results

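Cells that the submitters labelled Glutamatergic 1 were compared between both Cre driver lines that supplied them. They were 33 of the 162 cells of the study, 10 from the Nex Cre line and 23 from the Htr3a Cre line, chosen by the labels for type, line and passed quality control. One further Glutamatergic 1 cell of the Htr3a line failed quality control and was left out. The embryos were mice between E17.5 and E18.5. Cytosol was collected through a patch-clamp pipette and sequenced as RNA, and each sample is 1 cell. No treatment is named for either line, the Cre driver is the single allele given, and how a cell was picked for the pipette is not given in the sources used here.

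The Nex driver takes its name from Neurod6 (also called Nex), which encodes a transcription factor of postmitotic glutamatergic neurons of the dorsal forebrain. The Htr3a driver is named for a serotonin receptor gene best known in interneurons born in the caudal ganglionic eminence. Cortical glutamatergic neurons settle in layers by birth date. Rorb and Cux genes mark neurons of the upper layers, while Fezf2 and Bcl11b mark neurons of the deep layers that project below the cortex. Guidance receptors, adhesion molecules and ion channels then set where axons grow, which partners they meet and how the cell fires.

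Since the labels tie no cell to an animal, each line counts as 1 sample. No difference between the lines was therefore tested, and SDs describe the spread between cells only. The driver line, its animals and any batch cannot be told apart. Cells of the Nex line held 4851610 to 11206187 counts and those of the Htr3a line 1828374 to 21437441 counts. Genes detected per cell were fewer in the Nex line, at 2066 to 6978 (median 4311.5), than in the Htr3a line, at 2716 to 9170 (median 5183). After each cell was thinned to 1828374 counts the medians were 4078 and 4657, in the same order of lines. Mitochondrially encoded genes took a median of 0.508% of counts in Nex cells and 0.490% in Htr3a cells. At least 1 Y-linked gene had 10 or more reads in 6 of 10 Nex cells and in 10 of 23 Htr3a cells, so both lines held male cells.

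Values are counts scaled to the total of the cell (CPM). A log2 difference is the mean of log2(CPM + 1) over Nex cells minus that over Htr3a cells, and is understated for low genes. A gene counted as measured where at least 7 of the 33 cells held a read. It was called higher or lower where the log2 difference reached 1 and the summed counts differed at least 2-fold in the same direction, both also without the cell of highest CPM. Of 8963 measured genes, 552 (6.16%) were higher and 1087 (12.1%) were lower in Nex cells. Of these calls 197 higher and 710 lower ones held when any 1 cell was left out. The filter of 7 cells was applied anew each time. A gene read in exactly 7 cells thus lost its call without any 1 of them, whatever its values. This holds for all counts of calls below that held without any 1 cell. A gene can be measured through Htr3a cells alone, whereas 7 of the 10 Nex cells would be needed. The median log2 difference over all measured genes was -0.20 (-0.17 by summed counts), and no measured gene separated all cells of one line from all cells of the other.

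Driver genes and markers of glutamatergic neurons were looked at first. Neurod6 had a read in 10 of 10 Nex cells (0.147 to 8088 CPM, median 599) and in 17 of 23 Htr3a cells (0 to 1332 CPM, median 310). Its log2 difference of 1.89 (SD 4.26 over Nex cells and 4.14 over Htr3a cells) was not past the rule. Htr3a itself was read in 0 of 10 Nex cells, which allows a share of cells with a read of up to 30% by counting error alone, and in 5 of 23 Htr3a cells, the highest at 189 CPM. Messenger RNA of the driver gene was thus detected in a minority of the Htr3a line's Glutamatergic 1 cells. Lhx6, the driver gene of a further line of the study, had 0 reads in Nex cells and was seen in 1 Htr3a cell at 0.0939 CPM. The glutamatergic transcription factor genes Neurod2 (10 of 10 Nex cells and 22 of 23 Htr3a cells) and Tbr1 (7 of 10 and 20 of 23) had log2 differences of 0.19 and 0.15. Gad1 and Gad2, the enzymes of GABA synthesis, were read in 1 and 0 of 10 Nex cells and in 6 and 2 of 23 Htr3a cells, with a highest value of 366 CPM for Gad1 in an Htr3a cell. Reads of Neurod2 and Tbr1 were thus found in most cells of both lines. Of 18 measured glutamatergic neuron genes 5 were higher and 3 lower in Nex cells, with a median log2 difference of 1.23. These shares were 27.8% and 16.7%, beside 6.16% and 12.1% of all measured genes. Fezf2, among the lower ones, was known to part these cells when the comparison was chosen.

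Upper layer genes were high in the Nex cells and deep layer genes in the Htr3a cells. Of 14 measured upper layer genes 8 were higher and 1 lower in Nex cells (median log2 difference 2.12, and 3.68 by summed counts). Of 20 measured deep layer and subplate genes 1 was higher and 12 were lower (median -2.42, and -1.46 by summed counts). The shares were 57.1% higher and 7.14% lower for upper layer genes and 5% and 60% for deep layer genes. All measured genes had 6.16% and 12.1%, with a median of -0.20. Of these calls 6 higher and 1 lower upper layer genes, and 1 higher and 10 lower deep layer genes, held without any 1 cell. Among 6 Nex and 13 Htr3a cells matched in genes detected, 9 of 15 upper layer genes were higher and 1 lower. Of 21 deep layer genes there 1 was higher and 11 were lower. All genes measured in those cells had 1012 higher and 943 lower of 9346. Ptn, Rorb, Fezf2 and Bcl11b were known to part these cells when the comparison was chosen, and they stand here as description. Ptn and Rorb belong to the upper layer list, and Fezf2 and Bcl11b to the deep layer list. The counts, medians and per-cell means of both lists were thus in part set by that choice, and were not computed without these genes.

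Ptn encodes pleiotrophin, a secreted growth factor that acts on neurites. It had 187 to 1983 CPM in the 10 Nex cells (median 557), against 0 to 390.5 CPM in the 23 Htr3a cells (median 0, 7 cells with a read). All 10 Nex cells were at 187 CPM or more, a level that 2 Htr3a cells reached. The log2 difference was 7.62 (SD 1.11 over Nex cells and 3.08 over Htr3a cells), the largest of all measured genes that met the naming conditions. Rorb, a nuclear receptor of layer 4 neurons, ranged over 0 to 996 CPM in Nex cells (median 114, 6 of 10 with a read) and 0 to 9.18 CPM in Htr3a cells (median 0, 4 of 23 with a read). Of the Nex cells, 6 were at 10 CPM or more and 4 at 0, and no Htr3a cell reached 10 CPM. Whether Rorb RNA was missed in the cells at 0 was not tested. Pou3f3, a POU factor of upper layer neurons, was read in 6 of 10 Nex and 4 of 23 Htr3a cells (94.9 and 3.06 CPM by summed counts), and Limch1 in 9 of 10 and 9 of 23 (187 and 13.1 CPM).

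Fezf2, a zinc finger gene that specifies subcerebral projection neurons, was read in 1 of 10 Nex cells (56.7 CPM) and in 16 of 23 Htr3a cells, with 0 to 1235 CPM and a median of 103. Bcl11b (Ctip2), which acts with Fezf2 in axon growth to the brainstem and spinal cord, had 460, 2.61 and 8 times 0 CPM in Nex cells, and 0 to 706 CPM (median 66.7, 20 cells with a read) in Htr3a cells. For each gene 1 Nex cell held all or nearly all of the CPM of its line. The log2 differences were -4.43 for Fezf2 (SD 1.85 over Nex cells and 4.004 over Htr3a cells) and -4.16 for Bcl11b (SD 2.79 and 3.39 in the same order). Bcl11a, a relative of Bcl11b, was read in 6 of 10 Nex cells (median 1.40 CPM) and in 23 of 23 Htr3a cells (median 275 CPM). Crym, a thyroid hormone binding protein of corticospinal neurons, had 0 reads in all 10 Nex cells and was read in 11 of 23 Htr3a cells, up to 684 CPM. Zfpm2 and Nr4a2, transcription regulator genes of layer 6 and the subplate, had log2 differences of -3.31 and -2.88, with 1 and 0 of 10 Nex cells and 15 and 14 of 23 Htr3a cells. Ldb2, on the deep layer list as a gene of corticospinal neurons, went the other way, at 300.2 CPM in Nex cells and 46.9 CPM in Htr3a cells (8 of 10 and 10 of 23 cells). Lmo4, on the upper layer list, was read in 1 of 10 Nex cells and 13 of 23 Htr3a cells, a call lost with a pseudocount of 10 CPM. Tbr1 and Sox5, 2 further deep layer genes, had log2 differences of 0.15 and -0.10.

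Cell by cell, the mean log2(CPM + 1) of the upper layer list was 2.13 to 6.58 in Nex cells (median 3.18) and 0 to 4.001 in Htr3a cells (median 0.815). That of the deep layer list was 0.267 to 4.42 in Nex cells (median 1.61) and 1.64 to 5.44 in Htr3a cells (median 3.64). The upper layer mean exceeded the deep layer mean in 10 of 10 Nex cells and in 2 of 23 Htr3a cells. The upper layer mean includes Ptn and Rorb and the deep layer mean Fezf2 and Bcl11b, so this split was in part fixed beforehand. The ranges overlapped all the same, since 2 Htr3a cells were at or above the lowest Nex cell on the upper list, and 4 Nex cells were at or above the lowest Htr3a cell on the deep list. At 10 CPM or more, Ptn and Bcl11b were both present in 1 Nex cell and in 3 Htr3a cells. Ptn without Bcl11b was present in 9 Nex and 2 Htr3a cells, and Bcl11b without Ptn in 0 Nex and 13 Htr3a cells.

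**Figure D1:**
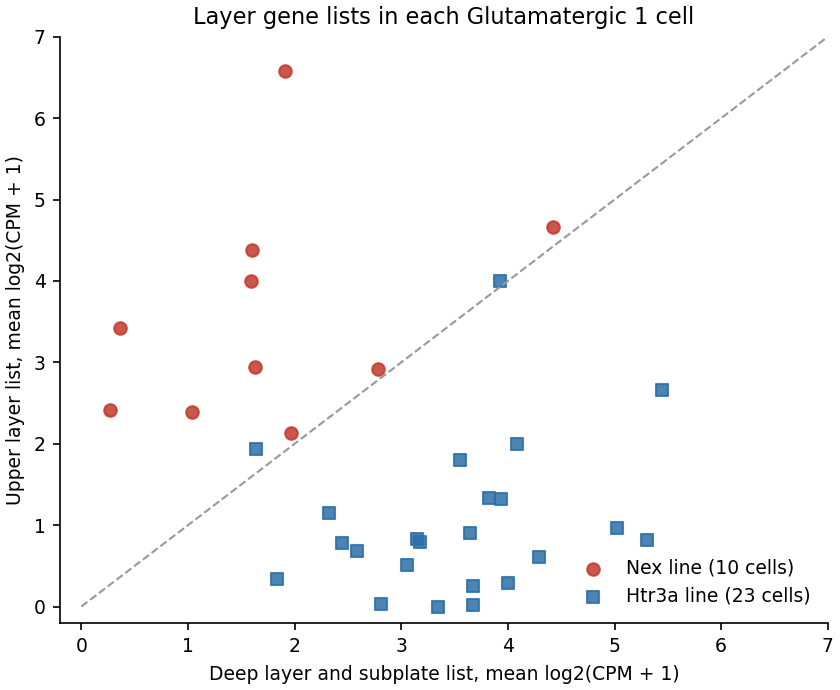
Mean log2(CPM + 1) of the upper layer list (vertical) and of the deep layer and subplate list (horizontal) in each Glutamatergic 1 cell; each point is 1 cell and the dashed line marks equal means. All 10 Nex cells lie above the line and 21 of the 23 Htr3a cells lie on the other side of it. The lists include Ptn, Rorb, Fezf2 and Bcl11b, which were known beforehand to part the cells.

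The 12 genes with the largest differences in each direction among well-detected genes included Ptn, Nfia and Bcl11a of the layer lists, and 21 genes outside them. Ptprk, a receptor tyrosine phosphatase of cell contacts, had 90.7 to 1391 CPM in Nex cells (median 666) and 0 to 582 CPM in Htr3a cells (median 0, 9 cells with a read). Syt4, a synaptotagmin of vesicle traffic, had 0 to 5114 CPM in Nex cells (median 2682) and 0 to 907 CPM in Htr3a cells (median 0.652), and 14.5% of its exons overlap a gene on the other strand. Fam19a1, which encodes a secreted chemokine-like protein of the TAFA family, was read in 8 of 10 Nex cells (37.96 to 710 CPM in those 8) and in 1 of 23 Htr3a cells, by a single read. These 3 genes had reads in 8 to 10 of the 10 Nex cells and were below 1 CPM in most Htr3a cells. St8sia2, the enzyme that puts polysialic acid on the adhesion molecule NCAM, was at 431 CPM by summed counts in Nex cells and 18.2 CPM in Htr3a cells (10 of 10 and 9 of 23 cells). Cnih3, an AMPA receptor auxiliary subunit, was at 363 and 18.2 CPM, with 8 of 10 Nex and 4 of 23 Htr3a cells. Afap1, an actin filament associated protein, differed by 5.95 on the log2 scale, Apbb2, an adaptor of the amyloid precursor protein, by 5.90, and Csmd2, a large transmembrane protein, by 5.08. AI593442 differed by 5.18, and an identifier with no symbol in the annotation used, ENSMUSG00000071860, by 5.24. Lrfn5, a synaptic adhesion molecule, completes the 12 and is described with the adhesion genes.

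Among the 12 genes lowest in Nex cells, 2 had no read in any Nex cell. Zcchc12, a zinc finger gene, was read in 16 of 23 Htr3a cells (0 to 868.5 CPM, median 196), which makes it at least 5312-fold lower in Nex cells by summed counts, with the floor set at 3 counts over the line. This bound covers counting error only, with reads that are not independent molecules, and 7 of the 23 Htr3a cells had no Zcchc12 read either. Abca8a, an ABC transporter gene, was also read in 16 Htr3a cells (median 108 CPM). Nfix and Nfia encode nuclear factor I proteins, which act in neuronal and glial differentiation. Nfix had 0 to 341 CPM in Nex cells (median 0.851, 5 of 10 with a read) and 9.78 to 1233 CPM in Htr3a cells (median 556, 23 of 23). Nfia was read in 1 of 10 Nex cells, at 1434 CPM, and in 21 of 23 Htr3a cells (median 172 CPM). The call for Nfia was lost after thinning, at the stricter rule of a log2 difference of 2 and 4-fold, and among 6 Nex and 13 Htr3a cells matched in genes detected. G430095P16Rik (-4.81) lies opposite Nfix, with which 19.001% of its exons overlap on the other strand. Cyb5a, a cytochrome b5, was read in 1 of 10 Nex and 18 of 23 Htr3a cells, and Nol4, a nucleolar protein gene of neurons, in 1 and 19. Snx3, a sorting nexin of endosomes, was read in 2 Nex and 19 Htr3a cells. Nae1 and Sae1, subunits of the enzymes that activate NEDD8 and SUMO, were read in 2 and 1 of 10 Nex cells and in 20 and 18 of 23 Htr3a cells. Sparcl1 (hevin), a secreted matrix protein also abundant in astrocytes, was read in 2 of 10 Nex cells and 20 of 23 Htr3a cells (67.3 and 765 CPM by summed counts). Astrocyte markers as a list summed to a median of 187 CPM in Nex cells (0 to 732) and 902 CPM in Htr3a cells (6.01 to 3093). These sums include Sparcl1 and Clu (32.7 and 282 CPM for Clu by summed counts). Sparcl1 and Clu were the 2 of 4 measured astrocyte markers called lower in Nex cells, 50% beside 12.1% of all measured genes. The other measured markers were not called and went both ways, with log2 differences of -1.93 for Slc1a2 and 1.67 for Apoe. The part of astrocyte RNA in the difference of Sparcl1 was not tested.

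**Figure D2:**
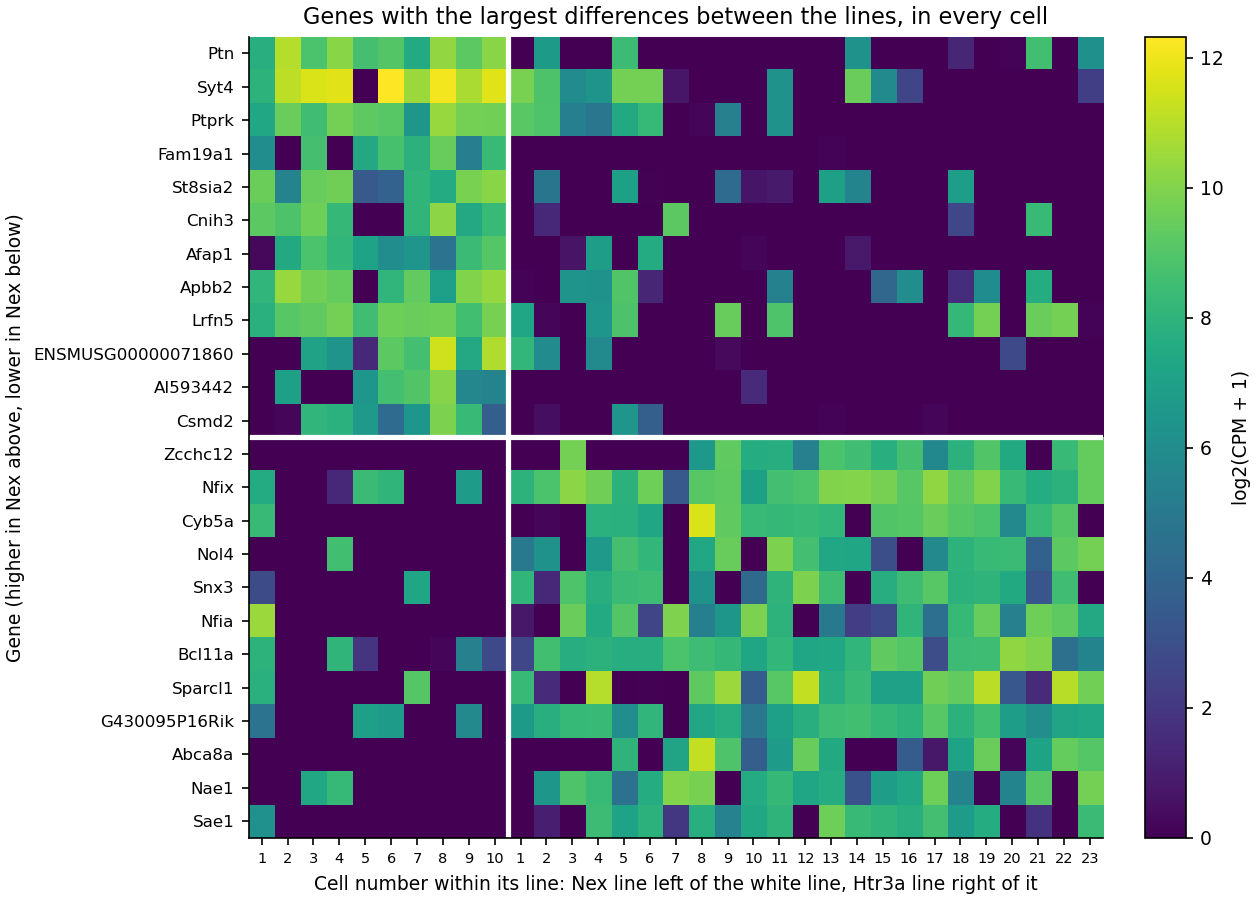
Level of 24 genes (rows) in all 33 cells (columns, Nex line left of the white line and Htr3a line right of it) as log2(CPM + 1), dark for 0. The 12 genes in the upper block are on in most Nex cells, and the 12 in the lower block are at or near 0 in most Nex cells and present in most Htr3a cells.

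Of these 24 genes, 5 are placed on build GRCm38 (GENCODE M21) as examples, together with Rorb, Fezf2 and Bcl11b. Ptn lies on the minus strand at chr6:36714929-36810220 and Fam19a1 on the plus strand of the same chromosome at chr6:96113154-96657198. Ptprk lies at chr10:28074820-28597397 on the plus strand, Nfix at chr8:84699876-84800344 on the minus strand, and Zcchc12 at chrX:36195904-36199158 on the plus strand. Rorb lies at chr19:18930605-19111196, Fezf2 at chr14:12342094-12348189 and Bcl11b at chr12:107910403-108003602, all 3 on the minus strand. Reads were counted per gene, so exons cannot be told apart.

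Axon guidance and migration genes were called in both directions. Of 78 measured genes on these lists, 7 were higher and 10 lower in Nex cells, near the 6.16% and 12.1% of all measured genes. The median log2 difference was 0.03 and that by summed counts was -0.05, with opposite signs. Among 6 Nex and 13 Htr3a cells matched in genes detected the balance was the other way, at 14 higher and 7 lower of 80 (median 0.27, beside 0.26 for all genes measured there). The balance of all genes measured there turned as well, at 1012 higher and 943 lower of 9346. Of the calls in all cells, 3 higher ones (Ptn, Sema3a and Dcx) and 6 lower ones held without any 1 cell. Ptn was known to part these cells when the comparison was chosen. The counts and medians of these guidance and migration genes were thus in part set by that choice, and were not computed without Ptn.

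Sema3a, a secreted semaphorin that repels axons, had 738, 377, 261, 182 and 83.9 CPM in 5 Nex cells and 0 in the other 5. In Htr3a cells it had 0 to 585.5 CPM (median 0), with a read in 4 of 23 cells. Some Nex cells thus had clear Sema3a reads and others had none. Whether Sema3a RNA was missed in the cells at 0 was not tested. The log2 difference of 3.18 had SDs of 4.29 over Nex cells and 2.30 over Htr3a cells. Dcx encodes doublecortin, a microtubule protein of migrating neurons. It was present in 10 of 10 Nex cells (368 to 1857 CPM, median 999.6) and in 22 of 23 Htr3a cells (0 to 1021 CPM, median 282), a log2 difference of 2.83 (SD 0.79 over Nex cells and 2.89 over Htr3a cells). Both lines expressed Dcx, at a higher level in Nex cells. The call for Robo2, a Slit receptor (231 CPM in Nex cells and 63.7 CPM in Htr3a cells, log2 difference 2.59), was lost without Nex cell 1 and without Nex cell 4. Sema3a, Dcx and Robo2 did not pass the stricter rule.

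On the lower side stood ligands and receptors of several families. Efnb3, an ephrin ligand at the midline, was read in 4 of 10 Nex cells, none above 1.91 CPM, and in 11 of 23 Htr3a cells, up to 242.5 CPM (log2 difference -2.35). Slit2, a ligand of Robo receptors, was read in 2 Nex cells (up to 7.83 CPM) and 8 Htr3a cells (up to 247 CPM), and Sema6d, a transmembrane semaphorin, in 0 Nex cells and 9 Htr3a cells (up to 380.1 CPM). These ligands were present in a minority of Htr3a cells and at 7.83 CPM or less in every Nex cell. Unc5a, a repulsive netrin receptor, was read in 1 Nex cell and 13 Htr3a cells, and Rtn4rl2, a relative of the Nogo receptor, in 2 Nex cells and 9 Htr3a cells. Sema6c, a further transmembrane semaphorin, had a log2 difference of -1.53. Of these 6 genes Efnb3 alone passed the stricter rule and the pseudocount of 10 CPM, and the calls of Slit2, Sema6d and Sema6c were also lost among the matched cells. Gap43, a growth cone protein, was high in both lines (median 2013 CPM in Nex cells and 2294 CPM in Htr3a cells) with a log2 difference of 0.29; it was chosen after its values were seen.

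Adhesion genes were called in both directions, and several families held calls both ways. Of 109 measured adhesion genes 22 were higher and 16 lower in Nex cells, 20.2% and 14.7% where all measured genes had 6.16% and 12.1%. The median log2 difference was 0.46, and 0.07 by summed counts. In the matched cells 30 of 112 were higher and 8 lower (median 1.11), where all genes had 1012 higher and 943 lower of 9346 (median 0.26). Of the calls in all cells, 11 higher and 10 lower ones held without any 1 cell.

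Negr1, an IgLON adhesion molecule of neurite growth, had 0 to 749 CPM in Nex cells (median 192, 8 of 10 with a read) and 0 to 381 CPM in Htr3a cells (median 0.118, 12 of 23), a log2 difference of 3.84 (SD 3.39 over Nex cells and 3.02 over Htr3a cells). Lrfn5, a synaptic adhesion molecule that binds presynaptic phosphatases, had 228 to 893 CPM in the 10 Nex cells (median 676). In Htr3a cells it had 0 to 857.5 CPM (median 0, 11 of 23 with a read). Of the 11 Htr3a cells with a read, 7 were at or above the lowest Nex cell and 4 were below it. Lrfn5 did not pass the stricter rule. Among protocadherins, which sort neurons by like-to-like contact, Pcdh19 was read in 5 of 10 Nex and 4 of 23 Htr3a cells (107 and 3.99 CPM by summed counts). Pcdh8 was read in 5 and 6 cells in the same order (290.0 and 29.3 CPM), and Pcdh15 in 7 and 4 (53.95 and 2.85 CPM). Pcdh17 of the same list was lower, with a log2 difference of -2.21 (3 of 10 Nex cells, up to 19.99 CPM, and 14 of 23 Htr3a cells, up to 674 CPM). Its call and that of Pcdh15 were lost with a pseudocount of 10 CPM and by the stricter rule, and that of Pcdh17 also without cells holding erythrocyte genes and in the matched cells.

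The giant cadherins Dchs1 and Fat3, of planar cell polarity, had log2 differences of 3.10 (272 CPM in Nex cells and 46.6 CPM in Htr3a cells) and 2.83 (169 and 19.02 CPM). Cdh4 (R-cadherin) was read in 8 of 10 Nex cells (median 145 CPM) and 11 of 23 Htr3a cells (median 0), with a log2 difference of 2.55. Cdh11, also a cadherin, went the other way, at -2.42 (4 of 10 Nex cells and 17 of 23 Htr3a cells), a call lost without cells holding erythrocyte genes and in the matched cells. Cntn5, a contactin of immunoglobulin type, was read in 1 of 10 Nex cells (113 CPM) and in 13 of 23 Htr3a cells (0 to 1238 CPM, median 12.2), a log2 difference of -3.45 (SD 2.16 over Nex cells and 4.08 over Htr3a cells). Tenm2, a teneurin that binds latrophilins across the synapse, was read in 2 Nex cells (up to 57.6 CPM) and 20 Htr3a cells (0 to 193 CPM, median 34.9). Cntn5 and Tenm2 thus had no read in most Nex cells. The teneurins were split, since Tenm4 was lower (-2.17; 1 Nex cell and 11 Htr3a cells) and Tenm3 higher (2.45; 6 Nex cells and 6 Htr3a cells), both calls being lost under some settings. Those settings were the stricter rule for both, a pseudocount of 10 CPM and the matched cells for Tenm4, and the authors' normalized table and thinning for Tenm3. At 10 CPM or more, Tenm3 without Tenm4 was found in 6 Nex and 2 Htr3a cells, and Tenm4 without Tenm3 in 0 Nex and 6 Htr3a cells. This pair of a higher and a lower gene was chosen after its values were seen. Spock1, a matrix proteoglycan, was higher (8 of 10 Nex cells and 13 of 23 Htr3a cells, 294 and 71.6 CPM); with Cdh4 and Cdh11 it missed the stricter rule.

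Nrxn2 and Nrxn3 encode neurexins, presynaptic partners of many of these molecules, and were not past the rule. The log2 differences were -0.31 for Nrxn2 (SD 2.81 for both lines) and -1.40 for Nrxn3 (SD 2.45 over Nex cells and 3.21 over Htr3a cells). Nrxn2 was read in 6 of 10 Nex cells and 13 of 23 Htr3a cells, with 20.18 and 22.9 CPM by summed counts. Nrxn3 was read in 3 of 10 Nex cells and 14 of 23 Htr3a cells, with 30.4 and 49.2 CPM by summed counts.

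**Figure D3:**
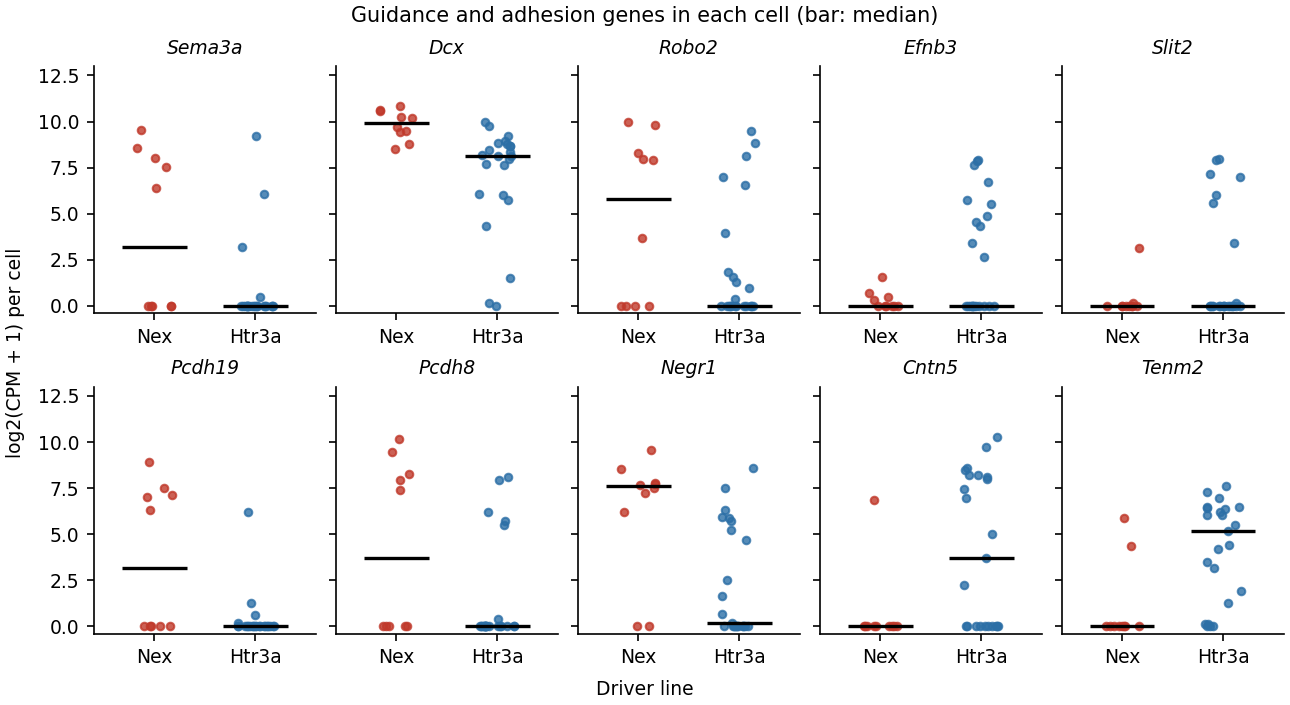
Level of 5 guidance genes (top) and 5 adhesion genes (bottom) as log2(CPM + 1), with the Nex line left and the Htr3a line right in each panel; each point is 1 cell and the bar is the median. Dcx is present in nearly all cells of both lines, while Efnb3, Slit2, Cntn5 and Tenm2 are near 0 in most Nex cells.

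Of 64 measured ion channel genes 5 were higher and 12 lower in Nex cells, 7.81% and 18.75% beside 6.16% and 12.1% of all measured genes (median log2 difference -0.42, and -0.39 by summed counts). Of these calls 3 higher and 7 lower ones held without any 1 cell. Among the cells matched in genes detected 9 of 68 were higher and 10 lower, where all genes had 1012 higher and 943 lower of 9346. The median in those cells was 0.15, beside 0.26 for all genes measured there.

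Cacna1h, a low-voltage activated (T-type) calcium channel, had 0 to 266 CPM in Nex cells (median 78.7, 8 of 10 with a read) and 0 to 550 CPM in Htr3a cells (median 1.85, 15 of 23). Its log2 difference was 2.59 (SD 3.17 over Nex cells and 3.04 over Htr3a cells). Kcnq3, a subunit of the M-type potassium channel, was read in 6 of 10 Nex cells (73.1 CPM by summed counts) and 8 of 23 Htr3a cells (11.6 CPM). Kcnk2 (TREK1), a background potassium channel, was read in 5 and 6 cells of the lines in the same order (81.2 and 5.44 CPM). It missed the stricter rule, and 12.2% of its exons overlap a gene on the other strand. These 3 channel genes were on in some cells of both lines and in a larger share of Nex cells.

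Cacna1e, the R-type calcium channel, was present in 7 of 10 Nex cells (0 to 255 CPM, median 130) and in all 23 Htr3a cells (19.7 to 1844 CPM, median 411). The log2 difference of -3.88 (SD 3.61 over Nex cells and 1.42 over Htr3a cells) was not past the rule among the matched cells. Nalcn, a sodium leak channel, had 0 reads in Nex cells and was read in 10 of 23 Htr3a cells, up to 704.5 CPM. Cacna2d3, an auxiliary calcium channel subunit, was read in 1 of 10 Nex cells and 13 of 23 Htr3a cells (log2 difference -2.36), and Kcnab1, a beta subunit of Shaker-type potassium channels, in 2 and 12 cells (1.78 and 105 CPM). Apart from Cacna1e, these genes had no read in 8 or more of the 10 Nex cells. Kcnip4 and Cacnb1 were lower as well, but not with a pseudocount of 10 CPM or by the stricter rule.

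Of 32 measured transmitter receptor genes 1 was higher and 4 were lower, 3.12% and 12.5% beside 6.16% and 12.1% of all measured genes (median log2 difference -0.01, and -0.02 by summed counts). In the matched cells 5 of 31 were higher and 1 lower, with a median of 0.82. All genes measured there had 1012 higher and 943 lower of 9346 (median 0.26). The balance of this list thus turned with the cells used, as did that of all genes. Cnih3 and Cnih2 encode cornichon subunits that slow AMPA receptor gating, and they differed in opposite directions. Cnih3 had 0 to 1173 CPM in Nex cells (median 313) and 0 to 590 CPM in Htr3a cells (median 0). Cnih2 had 0 to 390.1 CPM in Nex cells (median 76.2, 7 of 10 with a read) and 0 to 981 CPM in Htr3a cells (median 300.4, 22 of 23). At 10 CPM or more, Cnih3 without Cnih2 was found in 4 Nex cells and 1 Htr3a cell, Cnih2 without Cnih3 in 2 Nex and 20 Htr3a cells, and both in 4 Nex cells and 1 Htr3a cell. The pair was chosen after its values were seen. The Cnih2 call was lost by the stricter rule, in the matched cells and without cells under 3000 genes. Glra2, a glycine receptor subunit of immature neurons, was read in 2 of 10 Nex cells and 12 of 23 Htr3a cells (2.33 and 49.3 CPM), and missed the stricter rule. Gria2, the AMPA receptor subunit that limits calcium entry, and Grin2b, the juvenile NMDA receptor subunit, were present in all 33 cells. Their log2 differences of 0.93 and 1.49 were not past the rule; both genes were chosen after their values were seen.

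Genes of young and of mature neurons were called in both directions. Of 22 measured young neuron genes 4 were higher and 2 lower in Nex cells (median log2 difference 0.25, and 0.30 by summed counts). Of 43 measured mature neuron genes 4 were higher and 8 lower (median -0.50, and -0.41 by summed counts), and of 30 presynaptic release genes 4 were higher and 7 lower (median -0.34, and -0.17 by summed counts). These shares were 18.2% higher and 9.09% lower for young neuron genes, 9.30% and 18.6% for mature neuron genes, and 13.3% and 23.3% for presynaptic genes, beside 6.16% and 12.1% of all measured genes. The numbers that held without any 1 cell were 3 higher and 0 lower for young neuron genes, 2 and 5 for mature neuron genes, and 3 and 6 for presynaptic genes. In the matched cells the medians of the mature and presynaptic lists were 0.25 and 0.44, and that of young neuron genes was 0.31, beside 0.26 for all genes measured there. The counts there were 6 higher and 9 lower of 44 mature neuron genes and 4 and 3 of 30 presynaptic genes. For young neuron genes they were 5 and 3 of 22, and for all genes 1012 and 943 of 9346.

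Zbtb18, a repressor needed for cortical neuron differentiation, had 353 to 3838 CPM in Nex cells (median 1289) and 0 to 1287 CPM in Htr3a cells (median 156, 18 of 23 with a read). Its log2 difference of 4.96 (SD 1.00 over Nex cells and 3.92 over Htr3a cells) missed the stricter rule. Sox11, a transcription factor of newborn neurons, was present in all 33 cells, at a median of 1313 CPM in Nex cells and 398 CPM in Htr3a cells, and its call was lost by the stricter rule, in the matched cells and without cells under 3000 genes. Zbtb18 and Sox11 were thus also expressed by most Htr3a cells. Neurod1, a proneural factor, was read in 5 of 10 Nex cells and 3 of 23 Htr3a cells (145 and 34.85 CPM). Its call was lost by the stricter rule and without cells holding microglia markers, and 13.008% of its exons overlap other genes.

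Both vesicular glutamate transporters of the forebrain were on the mature neuron list and differed in opposite directions. Slc17a6 (VGLUT2) had 555, 260.4, 238, 169, 74.8 and 37.97 CPM in 6 Nex cells and 0 in the other 4. In Htr3a cells it had 0 to 127 CPM (median 0, 3 of 23 with a read). Slc17a7 (VGLUT1) had 0 to 110 CPM in Nex cells (median 0, 4 of 10 with a read) and 0 to 730 CPM in Htr3a cells (median 83.4, 21 of 23). The log2 differences were 3.99 for Slc17a6 (SD 3.92 over Nex cells and 1.49 over Htr3a cells) and -3.65 for Slc17a7 (SD 2.70 and 2.78 in the same order). At 10 CPM or more, Slc17a6 without Slc17a7 was found in 4 Nex and 0 Htr3a cells, and Slc17a7 without Slc17a6 in 1 Nex and 18 Htr3a cells. The pair was chosen after its values were seen and joins a higher with a lower gene, so a split was built in. Neither transporter reached 10 CPM in 3 Nex and 4 Htr3a cells.

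Nrgn, the calmodulin-binding protein neurogranin of dendritic spines, was present in all Nex cells (26.4 to 404 CPM, median 54.5) and in 10 of 23 Htr3a cells (0 to 50.4 CPM, median 0). Eno2, the neuronal enolase of glycolysis, was read in 3 of 10 Nex cells (up to 177 CPM) and in 18 of 23 Htr3a cells (median 195 CPM). Prkcb and Syn2, a protein kinase C and a synapsin of vesicle pools, were lower too, with log2 differences of -3.04 and -2.49. Among presynaptic genes, Syt1, the calcium sensor of transmitter release, was higher (median 554 CPM in Nex cells and 5.63 CPM in Htr3a cells, 9 of 10 and 18 of 23 cells), as was Stx1a, a syntaxin of the fusion complex (median 432 and 132 CPM). Rab3c, a vesicle GTPase, was lower, as it had 0 reads in Nex cells and was read in 13 of 23 Htr3a cells, up to 451 CPM. Vamp2, the vesicle SNARE, had a median of 97.1 CPM in Nex cells and 276 CPM in Htr3a cells, and lost its call by the stricter rule and in the matched cells. Syt1 and Stx1a missed the stricter rule. Snap25, the partner of syntaxin, had a log2 difference of -2.40, and -0.87 by summed counts, short of 2-fold; it was chosen after its values were seen.

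**Figure D4:**
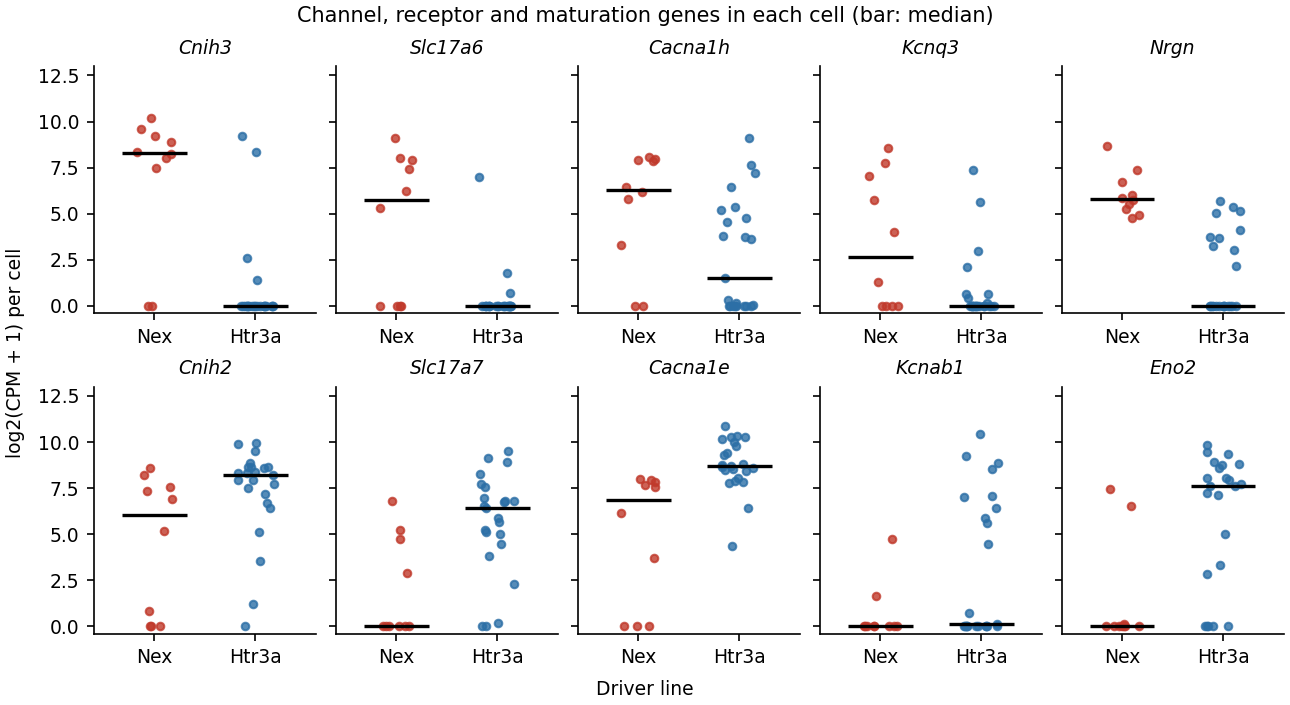
Level of 10 channel, receptor and maturation genes as log2(CPM + 1), higher in Nex cells in the top row and lower in the bottom row, with the Nex line left and the Htr3a line right in each panel; each point is 1 cell and the bar is the median. Cnih3 and Slc17a6 are at 0 in most Htr3a cells, whereas Cnih2 and Slc17a7 are present in 22 and 21 of 23 Htr3a cells.

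Transcription factor genes of neuronal identity were split as well. Of 22 measured genes 4 were higher, among them Foxp1, Tcf4 and Zeb2, and 5 lower (Nfix, Nfia, St18, Tshz3 and Tshz1), 18.2% and 22.7% beside 6.16% and 12.1% of all measured genes, with a median log2 difference of -0.50 (-0.53 by summed counts). All 9 calls held without any 1 cell. St18, a zinc finger factor, had 0 reads in Nex cells and was read in 13 of 23 Htr3a cells, up to 626.5 CPM. Tshz3, a zinc finger gene of corticostriatal neurons, was read in 1 of 10 Nex cells and 16 of 23 Htr3a cells (2.39 and 156 CPM). Foxp1, a forkhead gene of cortical neurons, was read in 9 of 10 Nex cells (median 136 CPM) and 14 of 23 Htr3a cells (median 0.376 CPM), and missed the stricter rule together with Zeb2. The Tcf4 call was also lost with TMM factors, in the matched cells and without cells holding erythrocyte genes, and the Tshz1 call in 5 settings that included a pseudocount of 10 CPM. On the list of genes graded across cortical areas, 1 of 12 measured genes was higher (Tenm3) and 5 were lower (Id2, Crym, Lmo4, Lmo3 and Zbtb20), 8.33% and 41.7% beside 6.16% and 12.1% of all measured genes. Crym and Lmo3 are also on the deep layer list and Lmo4 on the upper layer list, so these calls were already counted there. Id2, an inhibitor of basic helix-loop-helix factors, was read in 4 of 10 Nex cells and 22 of 23 Htr3a cells (217 and 862 CPM).

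**Figure D5:**
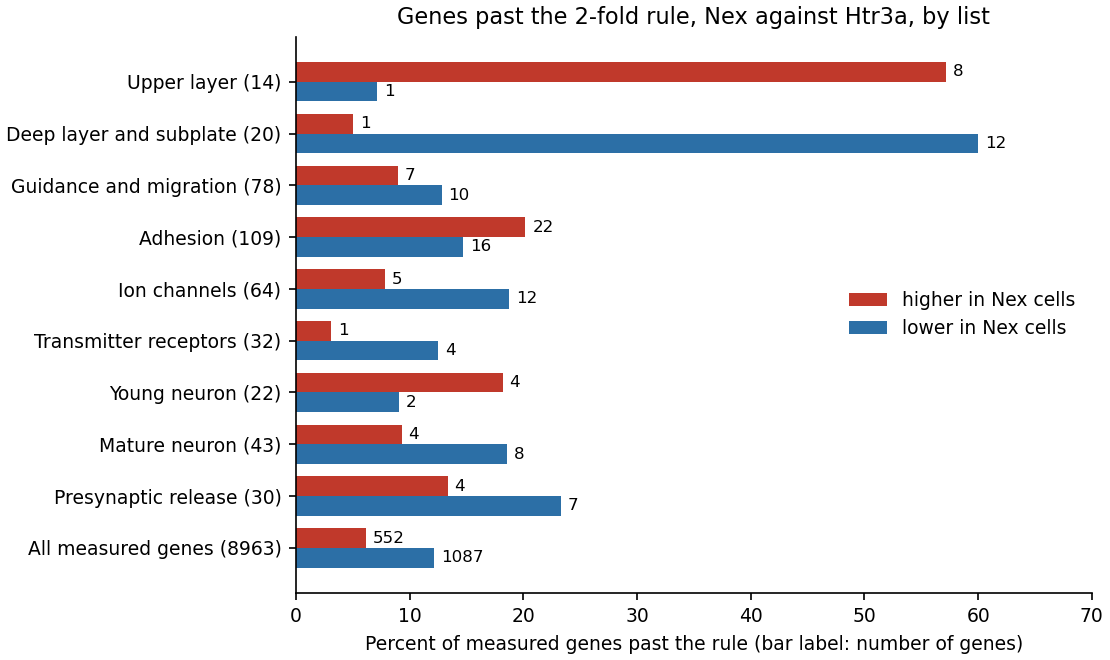
Percent of the measured genes of each list (number in brackets) that were higher (upper bar) or lower (lower bar) in Nex cells by the 2-fold rule; bar labels give the number of genes. The layer lists reach 57.1% higher and 60% lower, where all measured genes stand at 6.16% and 12.1%. They include Ptn, Rorb, Fezf2 and Bcl11b, which were known beforehand to part the cells. Ptn is also on the guidance and migration list.

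Markers of other cells moved with the lines in some lists. Erythrocyte genes summed to a median of 0 CPM in Nex cells (highest 22.3) and 38.6 CPM in Htr3a cells (highest 2029), with Hba-a1, Hba-a2 and Hbb-bs lower in Nex cells. Other genes share 53.2% to 89.3% of the 50-base stretches of these 3 genes. Interneuron markers summed to a median of 241 CPM in Nex cells (0.293 to 2697) and 48.1 CPM in Htr3a cells (0 to 1444), and Npy, a neuropeptide gene, was the 1 of 7 measured members called (8 of 10 Nex and 8 of 23 Htr3a cells, 405 and 35.1 CPM). Microglia markers reached 1590 CPM in 1 Nex cell and 5974 CPM in 1 Htr3a cell, with medians of 5.39 and 0.547 CPM in the same order of lines. Cajal-Retzius markers had medians of 76.8 CPM in Nex cells and 3.28 CPM in Htr3a cells, with 0 of 4 measured members called. Radial glia markers had medians of 286 and 509 CPM in the same order, with Ccnd2, a cyclin, lower in Nex cells (0 of 10 and 11 of 23 cells), and intermediate progenitor markers 119 and 134 CPM with 0 called. Oligodendrocyte lineage markers had medians of 0 and 2.17 CPM and endothelial and mural cell markers 0 and 0.489 CPM, with 0 called. Immediate early and heat shock genes, which respond to handling, summed to medians of 3702 CPM in Nex cells and 3886 CPM in Htr3a cells, with Jund and Junb lower in Nex cells. Lower calls were 3 of 4 measured erythrocyte genes (75%), 1 of 4 radial glia markers (25%) and 2 of 13 immediate early and heat shock genes (15.4%). Npy made 14.3% of the measured interneuron markers higher. All measured genes had 6.16% higher and 12.1% lower calls, and the immediate early and heat shock share was near the latter. The part of any of these lists in the other differences was not tested.

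Without cells holding at least 500 CPM of microglia markers, 634 genes were higher and 1108 lower. Without cells holding at least 100 CPM of erythrocyte genes the counts were 514 and 1126, and without cells under 3000 detected genes they were 690 and 1092. Of the 1639 genes called in all cells, 1281, 1219 and 1349 kept their call in these 3 sets of cells.

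The same lines were also compared in cells outside the Glutamatergic 1 label, which the choice of genes did not use. Among cells labelled Undefined, 4 came from the Nex line and 17 from the Htr3a line, and the median log2 difference over the 8963 measured genes was -0.82. It was -0.29 over the 552 higher genes and -1.19 over the 1087 lower genes. Of the 12 leading higher genes 7 were above 0 in Undefined cells, and of the 12 leading lower genes 2 were above 0, where 30.8% of all measured genes were above 0. Fam19a1 was read in 3 of 4 Nex and 3 of 17 Htr3a Undefined cells (1107 and 2.27 CPM), and Nfix in 2 of 4 and 17 of 17 (13.5 and 625 CPM). Both genes thus stood in the same order of lines as in the Glutamatergic 1 cells. Ptn was read in 3 of 4 Nex and 12 of 17 Htr3a Undefined cells, with a log2 difference of -0.88 but 172 and 131 CPM by summed counts, so its order hung on the measure. The log2 differences of Cnih3 (-0.93) and Syt4 (-1.04) were likewise below 0, while their summed counts were higher in the Nex line (89.4 and 59.0 CPM for Cnih3, 379 and 212 CPM for Syt4). Between the Lhx6 line and the Htr3a line of MGE-derived cells (14 and 28 cells), the median difference was -0.33 over the higher genes, -0.20 over the lower genes and -0.26 over all measured genes.

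In the 12 Glutamatergic 2 cells of the Htr3a line, which the fits above did not use, Rorb was read in 2 and Ptn in 4 cells, and Bcl11a and Nfix in all 12. Slc17a7 was read in 12 of these cells (231 CPM by summed counts) and Slc17a6 in 3 (20.97 CPM). Cnih2 was read in 12 (734 CPM) and Cnih3 in 6 (55.5 CPM), while Ptprk was read in 11 (193 CPM).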

How the data were processed

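Each of the 162 samples is 1 patch-clamped cell of a mouse embryo, and 33 of them are described. The authors deposited raw read counts of every gene, and a normalized signal table. Trimmomatic, STAR, featureCounts and build GRCm38 are named per the submitters' processing notes, with no versions or strand setting. How the authors scaled the signal table is not given in the sources used here. Of 22880 identifiers 22570 received a symbol from GENCODE M21 and 310 did not, which left 22879 genes. A deposited table keyed by symbol, used in part, served as an alternative. No 2 of the 33 cells had identical counts. Groups came from the labels. CPM, log2(CPM + 1) means and summed counts were computed in Python 3.11.15 with numpy 2.4.6, pandas 2.3.3 and scipy 1.17.1, figures with matplotlib 3.10.9, and TMM factors with edgeR 4.0.16 in R 4.3.3. The comparison was run on simulated data with known folds in some genes, made by shuffling the CPM of each gene over the 33 cells. That shuffling removed the difference between the lines in genes detected. The simulation thus does not bear on the number of calls, and its outcome is not given. The 33 cells, the 34 gene lists and the rules were chosen with earlier results of these data known.

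Named genes were, among called genes read in 50% or more of the higher line's cells at 20 CPM or more, the 12 with the largest log2 difference in each direction; from every list at most 5 members, by size of difference; Rorb, Ptn, Fezf2 and Bcl11b; the driver genes; and the neurexins. Other genes (Neurod2, Tbr1, Gad2, Zfpm2, Nr4a2, Ldb2, Sox5, Unc5a, Rtn4rl2, Sema6c, Gap43, Pcdh17, Tenm4, Kcnip4, Cacnb1, Gria2, Grin2b, Sox11, Prkcb, Syn2, Rab3c, Snap25, Zeb2, Tshz3, Tshz1 and Zbtb20) were chosen after their values were seen. Shared sequence was read as stretches of 50 bases found in other transcripts. Some genes of the lists are counted but not reported by name here. Pairs of related genes were chosen after their values were seen, and not all pairs looked at are reported. Among those left out, Cacna1h and Cacna1e were both at 10 CPM or more in 6 of 10 Nex and 11 of 23 Htr3a cells.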

Additional observations from a re-analysis of the deposited data

Results flagged for a closer look

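In 11 of 33 genes looked at, 1 Nex cell stood far from the other 9 by Dixon's 95% critical value. Chance alone exceeds that value in about 1 of 20 groups of normally distributed values. That rate does not apply here, since the lower genes were named for being near 0 in Nex cells and any 1 cell with reads then stands apart. Values here are log2(CPM + 1). Nex cell 1 was at 0.27 for Afap1, where the median of the 10 cells was 7.32, and at 8.28 for Cyb5a, 10.49 for Nfia, 6.22 for Sae1 and 8.85 for Bcl11b, where the median was 0 for each. Nex cell 5 was at 0 for Syt4 and at 0 for Apbb2, where the medians were 11.36 and 9.39, and at 5.85 for Fezf2 and 7.80 for Nrxn3, where the medians were 0. Nex cell 4 was at 8.598 for Nol4 and Nex cell 7 at 7.27 for Snx3, with medians of 0. Of 20 sums per cell, 2 had such a cell. Microglia markers summed to 1590 CPM in Nex cell 6, where the median was 5.39 CPM, and endothelial and mural cell markers to 103 CPM in Nex cell 4, where the median was 0. The calls of these genes other than Nrxn3, which had none, held without any 1 cell.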

How the results depend on the processing

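The counts of 552 higher and 1087 lower genes depended on the call rule and on the cells. With the log2 difference alone they were 1557 and 2218, with a log2 difference of 2 and 4-fold 85 and 237, with a pseudocount of 10 CPM 313 and 474, in 6 Nex and 13 Htr3a cells matched in genes detected 1012 and 943, and in the table by gene symbol 213 and 426 (3595 genes measured). In the matched cells the log2 difference of Jund was 0.053 (lower in all cells) and the log2 difference of mt-Nd2 was 1.16 (lower in all cells). The median of young neuron genes was -1.46 in the table by gene symbol. With a pseudocount of 0.1 CPM the counts were 628 and 1457, from the authors' normalized values 435 and 1210, with TMM factors 468 and 1245, and after thinning 496 and 1036. Leaving out 1 cell gave 476 (without Nex cell 9) to 642 (without Nex cell 2) higher genes and 994 (without Htr3a cell 11 or 18) to 1333 (without Nex cell 9) lower genes. The cause of these shifts was not tested. No paired analysis was possible because no test was made and no label pairs cells across the lines. With 10 and 23 cells and 1 sample per line, differences between animals cannot be seen.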
